A study of Mus musculus with 4 samples.

Results

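Osteoclasts are the large multinucleate cells that resorb bone, and the RANK axis is the signalling route that makes them from cells of the monocyte line. The genes described here are 10: Acp5, Ctsk, Calcr and Atp6v0d2, which osteoclasts use or display; Tnfsf11, Tnfrsf11a and Tnfrsf11b, which encode RANKL, its receptor RANK and the decoy receptor osteoprotegerin; Csf1 and Csf1r, the macrophage growth factor M-CSF and its receptor; and Nfatc1, the transcription factor that directs the last steps of osteoclast formation. They were found by name among the probes of an Agilent whole mouse genome microarray, on which all 10 were present with 18 probes, out of 30450 gene names. The rule that finds them matches names alone.

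The study compared 4 mouse samples by single-colour (Cy3) microarray, with 1 array each. Stem cells were mesenchymal cells of embryonic origin from the RIKEN cell bank, of the C3H background. The transfected tissue was ligament-like tissue (C3H) grown from those cells after they received a mouse gene that the labels name only A, carried in pCAGGS, a plasmid that drives strong expression in most cell types. Wild type ligament and the ligament of A transgenic mice, which were made with the same plasmid, came from mice of the C57BL/6J background. Age, number of animals, pooling and the ligament that was dissected are not given in the sources used here. With 1 array per group no difference has a replicate check, no test between groups was possible and no p-value was made. Differences of 2-fold or more are called higher or lower. Strain and origin change together wherever cells or transfected tissue are set against ligament, so their parts cannot be told apart.

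RANKL is made mainly by osteoblasts, osteocytes and other stromal cells, and also by activated lymphocytes. Binding to RANK on monocyte-line precursors recruits TRAF6, activates NF-kappa B and AP-1 and, through calcium signals carried by costimulatory receptors, induces NFATc1, which switches on Acp5, Ctsk, Calcr and the fusion genes. M-CSF keeps the precursors alive and raises their RANK, while osteoprotegerin binds RANKL and blocks it. Ligaments are joined to bone at their ends, where osteoclasts resorb bone during growth and remodelling, and the periodontal ligament is a well studied source of RANKL and osteoprotegerin.

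Each level reported below is the signal of 1 probe, and the probes that decide the main statements are shown by their first 30 of 60 bases, 5′ to 3′ on the strand of the transcript, at the mm9 positions in the files. The 2 Acp5 probes overlap by 45 bases (capitals mark the shared bases) and are therefore no independent measurements. The 2 Atp6v0d2 probes lie apart on the transcript, and those of Ctsk, Calcr, Tnfsf11 and Tnfrsf11b are the only probes of their genes.
Acp5 probe 1, chr9:21931190-21931249: ctttcttgggaacggGCTTTCCTTTCAGTC
Acp5 probe 2, chr9:21931175-21931234: GCTTTCCTTTCAGTCAAGTCTTACTGTCAC
Ctsk, chr3:95313165-95313224: catttcagtcttccactgagatgcacaaat
Atp6v0d2 probe 1, chr4:19805367-19805426: agcagaatgcatctcacagaggcatcgaac
Atp6v0d2 probe 2, chr4:19804304-19804363: acagaaataatgtgaactaattttactata
Calcr, chr6:3635940-3635999: ggacggattgaaggaaggatgttttttcaa
Tnfsf11, chr14:78677444-78677503: gatacataataggctactgaaatctgtcag
Tnfrsf11b, chr15:54082760-54082819: tttatccagctgtcatgtctggttcagtat
The Ctsk probe reads the plus strand and the others the minus strand. Whether each lies in coding or untranslated sequence was not determined, because no mm9 annotation was used here.

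Between 49.0% and 56.3% of the 43020 spots of an array that were not controls carried the scanner's mark for a signal well above background, and no spot was saturated. Levels are log2 processed signals minus the array's 75th percentile, called normalised signals. The ligament arrays were dimmer. Their 75th percentile lay at 285 (wild type) and 303 (transgenic) signal units, against 1165 in stem cells and 2272 in transfected tissue. The lowest normalised signal that counted as well above background was accordingly −3.41 and −3.90 in the ligaments and −5.79 and −5.71 in stem cells and tissue, so that "not well above background" leaves room for a higher normalised level in ligament. Repeated spots of 1 probe had a pooled SD of 0.0668 to 0.187 log2 units per array, which measures spot noise only.

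Acp5, Ctsk and Atp6v0d2 were far higher in both ligaments than in the cultured samples, where only Ctsk of the 3 was well above background. Acp5 encodes tartrate-resistant acid phosphatase, the classical stain for osteoclasts. Its brighter probe had a normalised signal of 6.44 in wild type and 6.88 in transgenic ligament, and of −6.24 in stem cells and −5.80 in transfected tissue, where it was not well above background. Wild type ligament was at least 4797-fold higher than stem cells, and the overlapping probe gave at least 3847-fold. Ctsk encodes cathepsin K, the protease that digests bone collagen. It was measured on all 4 arrays, at −4.55 in stem cells, −4.24 in transfected tissue, 4.53 in wild type and 4.83 in transgenic ligament. The 2 ligament values therefore stood far above the 2 culture values, with wild type ligament 541-fold above stem cells. The size of both folds depends on background and scaling: on the log2 scale the bound for Acp5 was 12.23 here, 10.92 after quantile normalisation and 9.79 after normexp background correction, and Ctsk gave 9.08, 8.17 and 7.55.

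**Figure D1:**
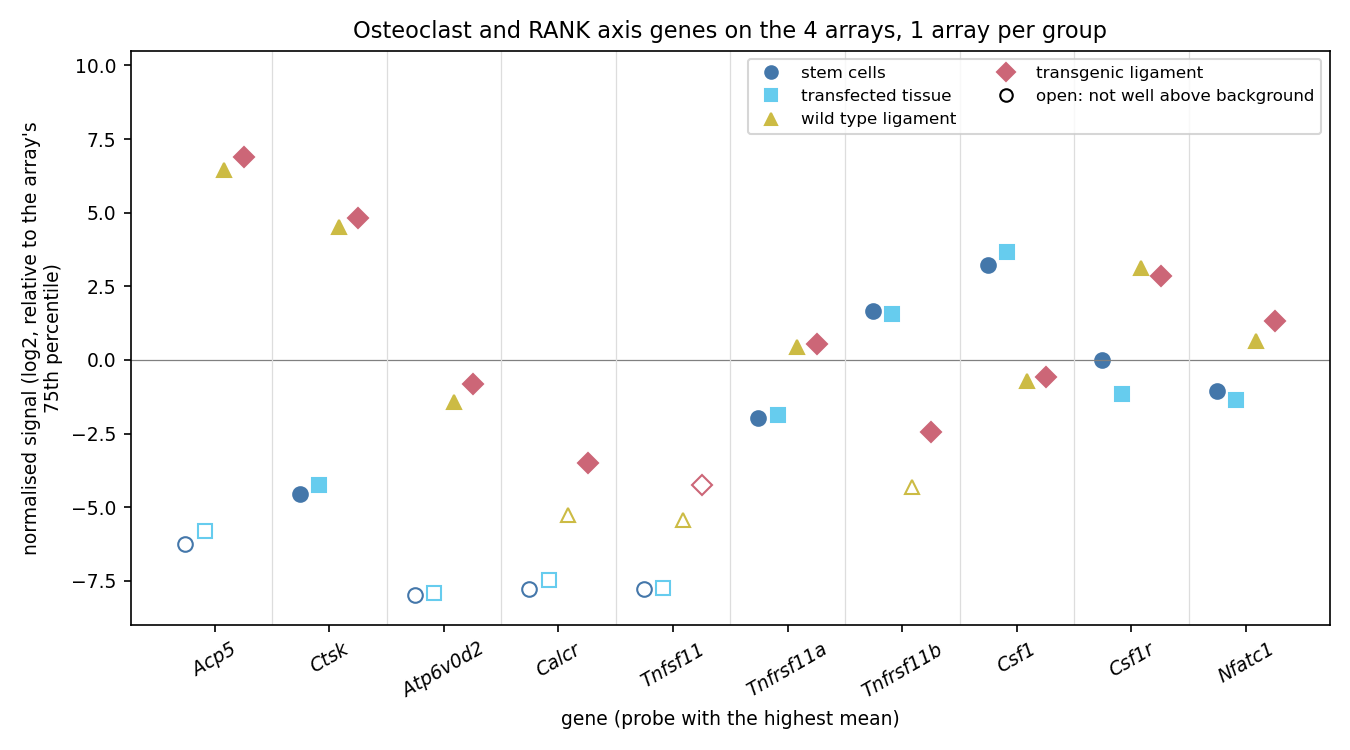
Normalised signal (vertical axis, log2 relative to each array's 75th percentile) of the 10 genes on the 4 arrays, 1 point per array, for the probe with the highest mean of each gene. Open symbols were not well above background. Acp5 and Ctsk reach 6.88 and 4.83 in transgenic ligament and lie below −4 in the cultured samples, Csf1 and Tnfrsf11b show the opposite order, and the 4 symbols of Tnfsf11 are all open.

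Atp6v0d2 encodes a d2 subunit of the proton pump that acidifies the resorption pit, and is needed for precursors to fuse. Its first probe was at −1.42 in wild type and −0.83 in transgenic ligament and not well above background in the cultured samples (−7.99 in stem cells, −7.92 in transfected tissue), a difference of at least 20.6-fold between wild type ligament and stem cells. On the log2 scale this bound was 4.37, and it was 2.90 with normexp background correction and 3.05 as the mean of both probes. The second probe, which lies farther towards the 3′ end of the transcript, was not well above background on any array, with −4.04 in wild type and −5.92 in transgenic ligament. The statement on Atp6v0d2 thus rests on 1 of its 2 probes.

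Calcr, the calcitonin receptor that mature osteoclasts carry on their surface, was well above background in transgenic ligament only, at −3.51. It read −5.26 in wild type ligament, −7.79 in stem cells and −7.47 in transfected tissue, none of them well above background. Since −3.51 lies below the limit of −3.41 that held on the wild type array, no fold between the ligaments can be given.

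Further osteoclast genes had the same order between ligament and culture. Dcstamp, the fusion receptor DC-STAMP, was at −1.57 and −1.10 in wild type and transgenic ligament and was not well above background in stem cells (−7.74) or transfected tissue (−7.78). Mmp9, a gelatinase that osteoclasts secrete but neutrophils also store, read 0.17 and −0.51 in the ligaments and −5.07 and −7.51, not well above background, in the cultured samples. In all, 8 of 9 osteoclast markers were well above background in wild type and 9 of 9 in transgenic ligament, against 4 of 9 in stem cells and in transfected tissue. The markers not well above background in either cultured sample were Acp5, Calcr, Atp6v0d2, Mmp9 and Dcstamp. Acp5, Ctsk, Calcr and Atp6v0d2 belong to both the 10 genes and these 9 markers.

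By the distance between centred normalised signals over the 4 arrays, the 5 genes most like Ctsk among 13001 measured on the same arrays were Pde4dip (distance 0.34 log2 units), Ppp1r27 (0.39), Lmod3 (0.58), Adssl1 (0.59) and Chrna9 (0.63). None of them is an osteoclast gene by its usual description. However, Acp5, Calcr, Atp6v0d2, Mmp9 and Dcstamp could not enter this list, because they were not well above background in the cultured samples. Pde4dip, whose product myomegalin is abundant in muscle, rose from −0.80 in stem cells to 8.71 in wild type ligament and read 8.65 in transgenic ligament. Lmod3, which encodes a leiomodin of muscle thin filaments, read −4.81 and 3.84 in stem cells and wild type ligament. With 4 arrays, such a list mostly collects genes that are high in both ligaments and low in both cultures. Skeletal muscle markers were among the brightest differences of that kind: 5 of 5 with a value were higher in wild type ligament than in stem cells, by 9.71 to 15.49 on the log2 scale. For Tnfsf11 no such list was made, because it was well above background on no array.

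RANKL itself was not well above background on any array. The Tnfsf11 probe read −7.78 in stem cells, −7.75 in transfected tissue, −5.42 in wild type and −4.23 in transgenic ligament, all not well above background. In transgenic ligament the probe did carry the scanner's separate mark for a positive and significant signal, and on the other arrays it did not. By the well-above mark its level has only an upper limit, which is higher in the ligaments. A change in the ratio of Tnfsf11 to Tnfrsf11b between arrays could therefore not be computed. Failing the well-above mark does not show that RANKL transcripts were absent.

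RANK and osteoprotegerin ran in opposite directions between culture and ligament. Tnfrsf11a, the RANK receptor, was measured on every array, at −1.98 in stem cells, −1.87 in transfected tissue, 0.45 in wild type and 0.55 in transgenic ligament. The ligaments were the higher pair, with wild type ligament 5.41-fold above stem cells. Tnfrsf11b, the soluble decoy, read 1.65 in stem cells and 1.56 in transfected tissue but −4.30 in wild type ligament, where it was not well above background, and −2.45 in transgenic ligament. Osteoprotegerin transcript was thus at least 33.4-fold lower in wild type ligament than in stem cells, a bound of −5.06 on the log2 scale that became −3.59 with normexp background correction. Transgenic ligament was at least 1.94-fold higher than wild type ligament, a bound just short of the 2-fold limit. On the log2 scale this bound was 0.96, and it was 0.35 with normexp background correction and 1.11 in the deposited table.

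M-CSF followed osteoprotegerin and its receptor followed RANK. Csf1 was covered by a probe with 10 spots per array, whose spot SD was 0.0435 to 0.0625 log2 units. It read 3.21 in stem cells, 3.68 in transfected tissue, −0.72 in wild type and −0.58 in transgenic ligament, so that wild type ligament was 15.2-fold below stem cells, or −3.93 on the log2 scale against −2.94 as the mean of all Csf1 probes. A second Csf1 probe fell from 2.18 to −2.80 between the same arrays, and another was at least 35.9-fold lower in wild type ligament. The fourth, designed to an Ensembl transcript, was not well above background on any array.

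Csf1r, the M-CSF receptor of monocytes, macrophages and osteoclast precursors, had 3 probes that did not tell the same story. The brightest read −0.02 in stem cells, −1.15 in transfected tissue, 3.13 in wild type and 2.87 in transgenic ligament, a rise of 8.84-fold from stem cells to wild type ligament. The dimmest failed the background mark in stem cells (−6.37) and transfected tissue (−7.75) and read −1.74 and −2.01 in the ligaments, at least 16.5-fold above stem cells in wild type. The remaining probe was nearly flat, at −1.88, −2.04, −1.85 and −1.47 in stem cells, transfected tissue, wild type and transgenic ligament. The first 2 of these probes separated ligament from culture and the remaining one did not, a disagreement whose cause was not tested.

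Nfatc1, the transcription factor downstream of RANK, was present in every sample. The brighter of its 2 probes read −1.06 in stem cells, −1.36 in transfected tissue, 0.66 in wild type and 1.31 in transgenic ligament, 3.28-fold higher in wild type ligament than in stem cells. The other probe, designed to transcript variant 1, read −2.83, −3.40, −2.58 and −2.32 in the same order, and its difference between wild type ligament and stem cells was only 0.25 on the log2 scale. NFATc1 is also used by lymphocytes, endothelium and muscle.

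**Figure D2:**
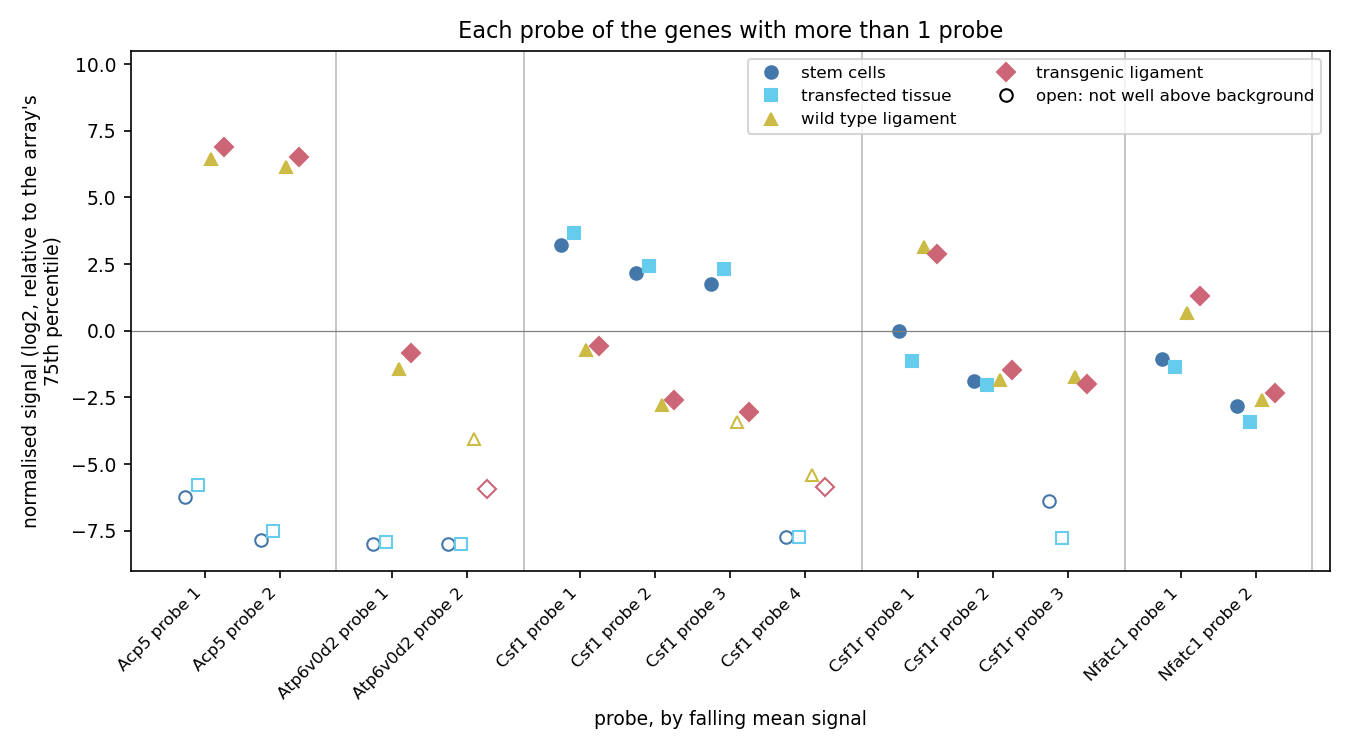
Normalised signal (vertical axis, log2 relative to each array's 75th percentile) of every probe of the 5 genes with more than 1 probe, numbered by falling mean signal, 1 symbol per array; open symbols were not well above background. The 2 Acp5 probes move together, the second probe of Atp6v0d2 and the fourth of Csf1 are open on all arrays, and the second Csf1r probe is nearly flat, between −2.04 and −1.47.

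The first comparison sets transfected tissue against the stem cells it was grown from. Transfection with A and growth into tissue change together in this pair, so their parts cannot be told apart. Of the 10 genes, 6 had a value in transfected tissue against stem cells, 0 were higher, 1 was lower and 5 lay within 2-fold. Over all 17875 genes compared, 11.0% were higher and 13.3% lower. The 1 gene called was Csf1r, 2.20-fold lower by its brightest probe. Its second measured probe differed by only −0.15 on the log2 scale. Centred on probes detected on all 4 arrays, the first probe gave −0.99, short of 2-fold, so that this call depends on the probe and on the scaling.

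The other 5 differences were 0.47 for Csf1, 0.31 for Ctsk, 0.11 for Tnfrsf11a, −0.09 for Tnfrsf11b and −0.31 for Nfatc1 on the log2 scale. Those of Ctsk and Tnfrsf11b changed sign between processing settings (−0.28 to 0.46 and −0.13 to 0.05). The median of the 6 was 0.01, against −0.08 over all genes. Acp5, Atp6v0d2, Calcr and Tnfsf11 were not well above background on either array and have no value.

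Around the 10 genes, more of the listed stromal regulators were lower than higher in transfected tissue, and the same held over all genes. Of 17 measured genes that regulate RANKL and osteoprotegerin in stromal cells, 1 was higher and 6 were lower (median −0.50). For this list and those that follow, the shares over all genes were 11.0% higher and 13.3% lower (median −0.08). Pth1r, the parathyroid hormone receptor through which osteoblasts raise RANKL, fell by 2.21 on the log2 scale. Cxcl12, a chemokine that holds precursors in marrow, fell by 2.19, and Il6, which acts on stromal cells to raise RANKL, fell by 2.05.

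Among 24 genes of RANK signalling, 0 were higher and 5 lower (median −0.09, against −0.08 over all genes). Fosl1, which encodes the AP-1 subunit Fra-1, changed by −4.05, Plcg2 by −1.83 and Map3k14, the NIK kinase of the non-canonical NF-kappa B route, by −1.61. Among fusion and costimulatory genes 2 of 8 were higher and 2 lower. Adam8, a surface protease, changed by −3.95 and the adhesion receptor Cd44 by −2.05, while Trem2, a DAP12-coupled receptor, differed by 1.35 the other way. Mitf and Bcl6 accounted for the 2 higher genes among 5 precursor factors, at 1.83 and 1.21. MITF works with NFATc1 at osteoclast promoters, and BCL6 is a repressor of them.

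Proton pump subunits had a median difference of 0.60 in the transfected tissue, against −0.08 over all genes. Of 21 with a value 3 were higher, 1 was lower and 17 lay within 2-fold. Over all genes 11.0% were higher and 13.3% lower. Atp6v0e2 differed by 3.16, Atp6ap2, an accessory subunit, by 1.55 and Atp6v1c2 by −1.08. Of 12 other cathepsins and acid phosphatases 1 was higher, Ctsf at 1.75, and 1 was lower. Ctsd and Ctsl, which every cell uses in lysosomes, differed by 0.89 and 0.77. In the resorption list 0 of 10 were higher and 1 lower, but the median was 0.68, against −0.08 over all genes. Itgb3, the beta 3 chain of the vitronectin receptor, changed by −1.08, and its partner Itgav by 0.86.

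In the M-CSF list 0 of 9 were higher and 1 lower, Socs3, a feedback inhibitor of cytokine receptors. Another 2 of the 9 were bounds under 2-fold, which do not show that these genes stayed within 2-fold. Among inflammatory inputs 0 of 8 were higher and 1 lower, the TNF receptor gene Tnfrsf1b at −1.55. Ramp3, which can pair with the calcitonin receptor, changed by −2.37 and Calcrl, a related receptor, by 1.08, as the 1 lower and 1 higher of 4.

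The second comparison asks what the A transgene was accompanied by in ligament. Of the 8 genes with a value between transgenic and wild type ligament, 0 were called higher and 0 lower. Of these, 7 lay within 2-fold. Tnfrsf11b had a lower bound under 2-fold, which does not show that it stayed within 2-fold, and the bound passed 2-fold under 3 other scalings, with 1.03 to 1.11 on the log2 scale. Calcr and Tnfsf11 have no value. Over all 16441 genes compared, 6.29% were higher and 7.04% lower. The differences ran from −0.26 for Csf1r through 0.10 for Tnfrsf11a, 0.14 for Csf1, 0.30 for Ctsk and 0.43 for Acp5 to 0.59 for Atp6v0d2 and 0.66 for Nfatc1 on the log2 scale. In this pair 7 of the 8 values lay above 0, and the median was 0.37, against −0.03 over all genes, of which 48.2% lay above 0. The smallest of these differences are of the size of the spot noise, and none can be separated from the spread between animals, which was not measured. The second probe of Nfatc1 gave 0.26. Csf1r gave −0.26, −0.27 and 0.38 by its 3 probes, and Atp6v0d2 gave −0.64 when its second probe, at background, was averaged in, so that their directions are not settled.

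**Figure D3:**
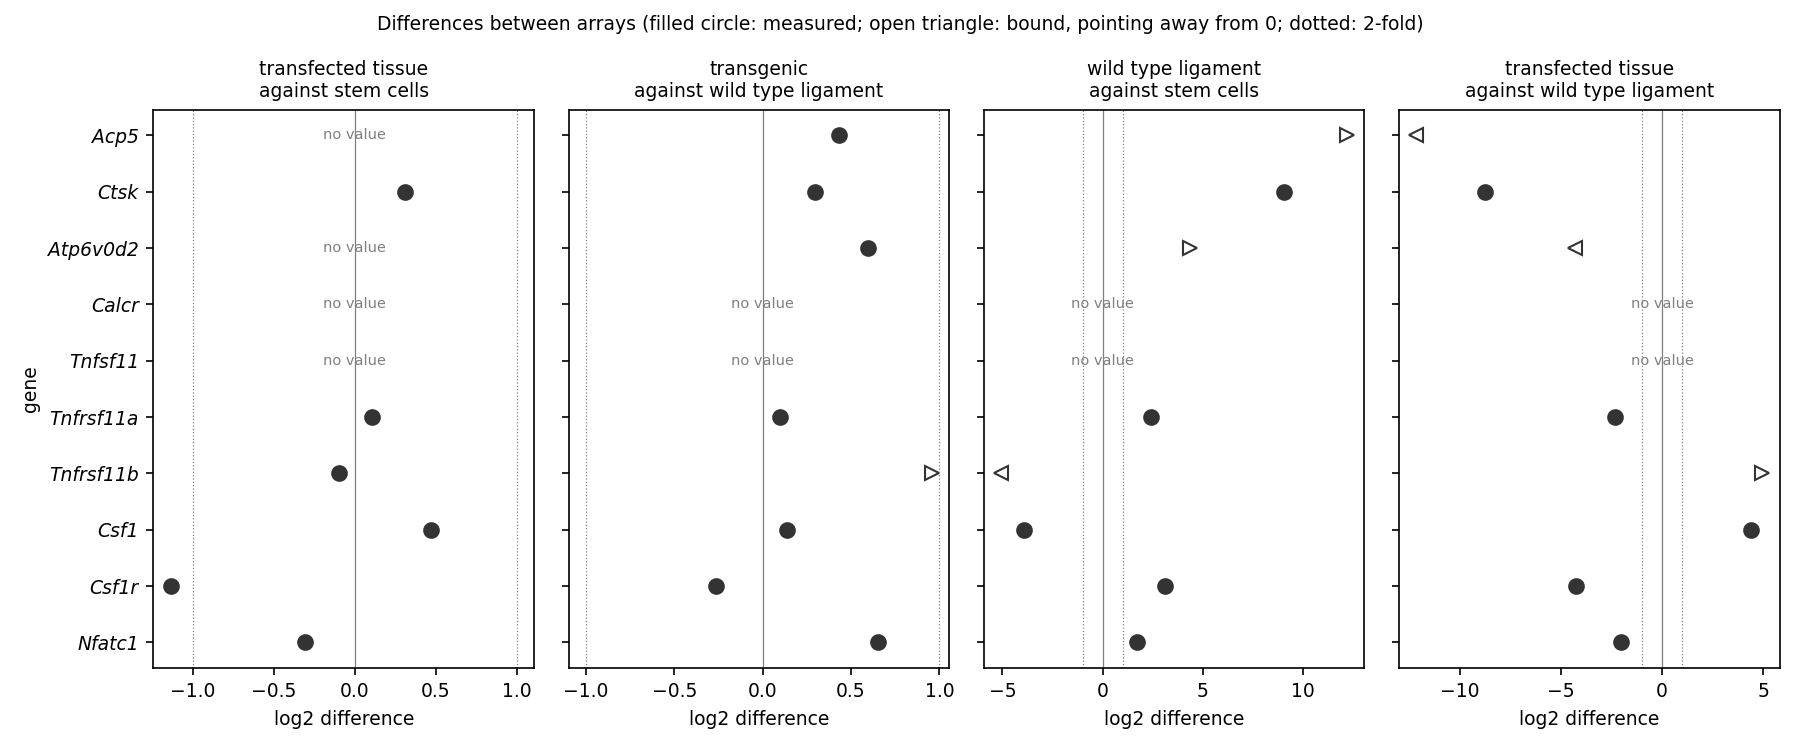
Log2 difference (horizontal axis, with its own scale in each panel) of each gene in the 4 comparisons, by its brightest probe. Open triangles are bounds and dotted lines mark 2-fold. In transgenic against wild type ligament all points lie inside the dotted lines, from −0.26 for Csf1r to the bound of 0.96 for Tnfrsf11b, whereas in wild type ligament against stem cells Acp5 reaches a bound of 12.23.

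Markers of other cell types moved with the genotype in the same 2 samples. Neutrophil markers were lower in 8 of 8 cases (median −2.36), with a summed normalised signal of 1195 in wild type and 427 in transgenic ligament, and erythroid markers in 4 of 5 (median −2.15), with sums of 540 and 115. Lymphocyte markers were lower in 5 of 8 (median −1.23), with sums of 14.1 and 8.03. These are cells of marrow and blood. Osteoblast and osteocyte markers were higher in 6 of 8 (median 1.79), with sums of 54.3 and 214, most of each from Bglap2. Of these 8, Alpl (0.35) and Ibsp (−0.42) lay within 2-fold. Tendon and ligament markers were higher in 8 of 10 (median 1.48), with sums of 259 and 346. Monocyte and macrophage markers, the lineage of osteoclast precursors, were lower in 3 of 16 and higher in 0 (median −0.29), with sums of 80.5 and 46.1. The 3 lower ones were Lyz1, Lyz2 and Fcgr3. Lyz1 read 5.10 in wild type and 3.10 in transgenic ligament, and Lyz2 read 2.54 and −0.16. Together Lyz1 and Lyz2 made up most of the fall in the macrophage sum. Cartilage markers were higher in 3 of 6 (median 1.44), with sums of 2.26 and 10.6. Lists that moved less were endothelium (0 of 4 called, median 0.53), mesenchymal stromal markers (1 of 9 higher, median 0.19) and skeletal muscle (1 of 5 lower, median −0.55). All 5 epidermal markers were higher, with a median of 2.28 and sums of 27.6 and 155. Several defining markers were not well above background in either ligament: Runx2, Sp7 and Sost for bone, Cd163 and Mertk for macrophages, and Cd8a and Rag1 for lymphocytes. Of the 9 osteoclast markers 8 had a value and 0 passed 2-fold (median 0.19). Acp5, Ctsk, Atp6v0d2, Dcstamp and Oscar differed by 0.09 to 0.59, and Mmp9, Ocstamp and Itgb3 by −0.69, −0.73 and −0.89. Their summed signal was 115 in wild type and 149 in transgenic ligament, most of it from Acp5 and Ctsk. The part of these differences in cell content in the results on the 10 genes was not tested. In bulk tissue, fewer cells of a type and less RNA per cell cannot be told apart.

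**Figure D4:**
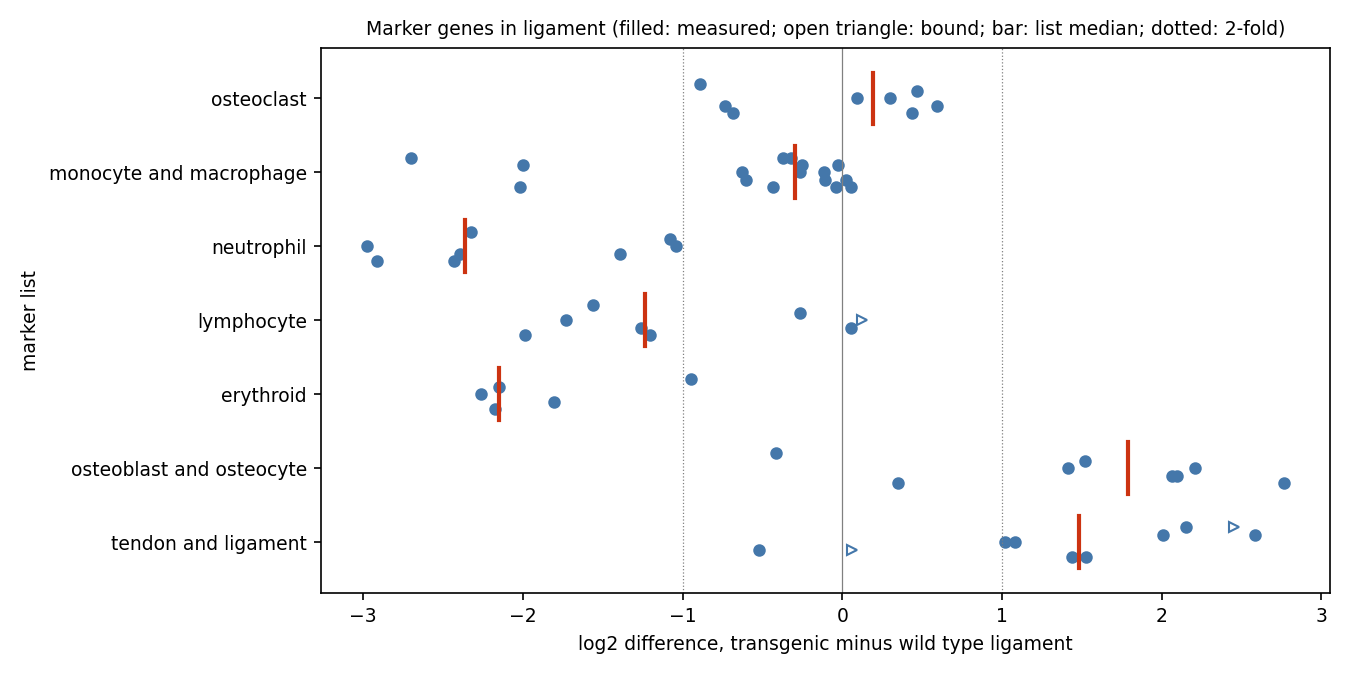
Log2 difference (horizontal axis) of marker genes between transgenic and wild type ligament, 1 symbol per gene with a value, by marker list; open triangles are bounds, bars are list medians and dotted lines mark 2-fold. Osteoclast markers lie between −0.89 and 0.59, while neutrophil markers lie between −2.97 and −1.04 and most bone and tendon markers lie above 1.

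Within the osteoclast programme the genes did not move as one between the ligaments. Of 11 measured genes of the resorption list 1 was higher and 1 lower (median −0.12). Car2, the carbonic anhydrase that supplies protons and that red cells also contain in quantity, changed by −1.63, from 2.57 to 0.95, and Itgav by 1.55. Itgb3, which platelets also carry, and Mmp9 lay within 2-fold at −0.89 and −0.69. Among fusion and costimulatory genes 0 of 11 were higher and 4 were lower (median −0.28). These 4 were Adam8 at −2.30, the adaptor genes Tyrobp (DAP12) at −1.65 and Fcer1g at −1.63, and Sirpb1a at −1.21, all of which are also expressed by neutrophils or other myeloid cells. Ocstamp, which is named with Dcstamp as a fusion gene, read −0.78 in wild type and −1.51 in transgenic ligament, a difference under 2-fold.

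Most intermediates of RANK signalling were level: of 26 with a value 0 were higher and 3 lower (median 0.18). The lower 3 were the kinases Syk (−1.28) and Btk (−1.27) and the phospholipase Plcg2 (−1.05), which serve B cell and Fc receptors as well. Fos, the AP-1 subunit without which no osteoclasts form, differed by 0.62. Irf8, a repressor of osteoclast formation that is abundant in myeloid precursors, was lower (−1.55), the 1 lower gene of 8 precursor factors. Prdm1 (0.84) and Creb1 (0.54) lay within 2-fold.

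On the M-CSF side 1 of 9 genes was higher and 1 lower. Il34, the second ligand of the M-CSF receptor, read −1.01 in wild type and 0.41 in transgenic ligament, a difference of 1.42, whereas Csf1 differed by 0.14. Csf2ra, a GM-CSF receptor chain, changed by −1.64, and Csf2rb (−0.91) and Pik3cd (−0.83) lay within 2-fold.

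Among 14 stromal regulators of RANKL and osteoprotegerin 3 were higher and 0 lower (median 0.35). They were Vdr, the vitamin D receptor through which calcitriol induces RANKL (1.63), and the ephrin pair Efnb2 (1.48) and Ephb4 (1.19), which carries signals between osteoclasts and osteoblasts. Osmr, the oncostatin M receptor, differed by 0.67. Of the inflammatory inputs Il1r1, the interleukin 1 receptor, was higher (1.49) and 1 of 9 was lower. Tnfrsf1a differed by 0.98, just under 2-fold, Il18 by 0.25 and Tnfrsf10b by 0.23. The genes of TNF, interleukin 1 alpha, interleukin 17A and interferon gamma were not well above background on any array.

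The list of calcitonin receptor partners had 0 of 5 higher and 1 lower, a bound for Calca, the gene of calcitonin and CGRP, at least 3.08-fold lower. Ramp3 (0.89), Adm (0.19), Ramp2 (0.09) and Ramp1 (0.08) lay within 2-fold. Of 20 proton pump subunits 2 were higher and 0 lower (median −0.11). Both were bounds, for Atp6v0a4 and Atp6v1c2, isoforms with a restricted tissue range. Atp6ap2 (0.62), Atp6v0a2 (0.55), Atp6v0b (−0.47) and Atp6v1f (−0.47) lay within 2-fold. Among 14 other cathepsins and acid phosphatases 0 were higher and 1 was lower, Ctse at −1.21, a protease of blood cells and stomach. Ctsl (0.96), Ctsd (0.69) and Acpp (0.65) lay within 2-fold.

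The third comparison sets wild type ligament against stem cells. All 8 of the 10 genes with a value passed 2-fold, 6 higher and 2 lower. The background is wide here: over all 16618 genes 37.7% were higher and 24.5% lower. The higher genes were Acp5, Ctsk, Atp6v0d2, Csf1r, Tnfrsf11a and Nfatc1, and the lower ones Csf1 and Tnfrsf11b, with the values given above. The median was 2.79, against 0.29 over all genes. Averaging all probes left Nfatc1 at 0.99, short of 2-fold.

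Monocyte and macrophage markers were high in the same array, with 15 of 17 higher in ligament and 1 lower (median 4.76), and 8 of 8 neutrophil and 7 of 7 lymphocyte markers were higher as well. Summed macrophage signal was 80.5 in wild type ligament and 10.8 in stem cells. Summed neutrophil signal was 1195 and 0.640. Adgre1, Mrc1, C1qc, Ctss, Fcgr3, Cx3cr1 and Ly86 were above background in ligament and not in stem cells. The part of these other blood and marrow cells in the level of Csf1r, Tnfrsf11a, Nfatc1 and Acp5 in ligament was not tested.

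Of 16 stromal regulators with a value 2 were higher and 12 lower in ligament (median −1.99), the same side as Csf1 and Tnfrsf11b. Mesenchymal stromal markers were lower in 9 of 10 (median −1.93), with summed signals of 147 in stem cells and 14.2 in ligament. Of 11 fusion and costimulatory genes 7 were higher and 3 lower (median 3.81), and in the resorption list 3 of 11 were higher and 1 lower (median 0.07).

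The fourth comparison asks how near the transfected tissue came to ligament for these genes. It shares the wild type ligament array with the third, so its values are no independent check of them. Of the 8 genes with a value 2 were higher and 6 lower in the tissue, against 23.0% higher and 39.7% lower over all 16523 genes. Acp5 was at least 4565-fold lower in the tissue, Ctsk 436-fold lower and Atp6v0d2 at least 19.6-fold lower. On the log2 scale these were −12.16, −8.77 and −4.29, and with normexp background correction −10.35, −7.83 and −3.47; the mean of both probes gave −2.98 for Atp6v0d2. Csf1r was 19.4-fold lower by its brightest probe and differed by −0.19 by its second. Tnfrsf11a differed by −2.33 and Nfatc1 by −2.02 on the log2 scale, with −0.82 by the second Nfatc1 probe. Csf1 was 21.1-fold higher in the tissue and Tnfrsf11b at least 31.3-fold higher. These values were 4.40 and 4.97 on the log2 scale, and Csf1 gave 3.26 as the mean of all its probes and Tnfrsf11b 3.46 with normexp background correction. For all 8 genes the transfected tissue thus lay on the same side of wild type ligament as the stem cells did, and within 2-fold of the stem cells in each case that had a value except Csf1r.

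The promoters of Acp5 and Ctsk are shown because these 2 genes were the farthest above culture in ligament and NFATc1 and MITF are known to act on both. The supplied RefSeq table (GRCm38.p6, 250 bases before to 50 after a start site) held 9 windows for 6 of the 10 genes. Capitals mark matches on either strand to the NFAT core GGAAA, the AP-1 site TGANTCA, the MITF M-box TCATGTG or the TATA box TATAAA. The motifs did not overlap each other in these windows.
Acp5 promoter, GRCm38.p6 chr9:22130549-22130848, minus strand: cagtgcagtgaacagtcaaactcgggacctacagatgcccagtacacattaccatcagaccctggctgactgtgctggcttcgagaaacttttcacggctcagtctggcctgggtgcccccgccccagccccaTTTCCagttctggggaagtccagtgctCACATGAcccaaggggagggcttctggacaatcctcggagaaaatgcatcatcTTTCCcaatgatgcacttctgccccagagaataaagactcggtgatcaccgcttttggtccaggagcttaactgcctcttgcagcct
Ctsk promoter, GRCm38.p6 chr3:95498960-95499259, plus strand: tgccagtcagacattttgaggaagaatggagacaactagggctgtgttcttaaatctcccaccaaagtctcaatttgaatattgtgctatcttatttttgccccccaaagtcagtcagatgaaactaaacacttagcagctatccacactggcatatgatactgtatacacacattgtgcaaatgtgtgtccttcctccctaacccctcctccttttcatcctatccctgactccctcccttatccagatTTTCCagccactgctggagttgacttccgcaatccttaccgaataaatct
This Acp5 window, 1 of 3 for the gene, held an M-box 90 bases before the start and NFAT cores 117 and 37 bases before it. The Ctsk window held 1 NFAT core, at the start site itself. An NFAT core was present in 7 of the 9 windows and in 61.3% of all 32851 windows of this length, so its presence says little. The M-box occurred in 1 of the 9, against 3.77% of all windows, the AP-1 site in 0, against 7.81%, and the TATA box in 1, that of Tnfsf11, against 13.6%. A match is a description of the letters and not of a bound site, and these arrays measured no binding.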

How the data were processed

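RNA of 4 mouse samples was labelled with Cy3 and hybridised to 1 Agilent array each. Per the file headers, the scanner files deposited by the authors hold spot intensity as background-corrected processed signal on a linear scale, made with Feature Extraction 10.7.1.1 and not normalised between arrays. Per the submitters' processing notes the version was 9.5.1.1, a difference that could not be settled. The value table the authors deposited also holds linear intensity (39429 probes, median 49.7), whose scaling is not given in the sources used here.

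Control spots and the 155 to 281 outlier spots per array were left out. Log2 processed signal minus each array's 75th percentile was averaged over the spots of a probe, and of several probes the one with the highest mean stood for the gene. Of 39429 probes 26863 were named through RefSeq accessions and the others by the file. A gene was compared if well above background on at least 1 array. Where the dimmer array was not, its value was raised to that array's lowest signal with the mark if it lay below it. The fold is then given as a bound. If this left the array without the mark above the other array, the gene was not compared. Python 3.11.15, pandas 2.3.3, R 4.3.3 and limma 3.58.1 were used, and the scripts were tested on simulated data. The 10 genes, the 10 pathway lists and the 12 marker lists were chosen with earlier results of these data known. Genes named from a pathway list were up to 4 with the largest difference between the ligaments and up to 3 between tissue and stem cells, among genes measured on both arrays, of which 1 is not reported here; Dcstamp, Ocstamp, Oscar, Calca, Atp6v0a4, Atp6v1c2 between the ligaments and markers not well above background were named after their values were seen. Alternatives were normexp background correction (offset 50), quantile normalisation, the deposited table, centring on the probes that all arrays detected, the mean of all probes, no filter or bound, both arrays well above background, and a 1.5-fold limit.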

Additional observations from a re-analysis of the deposited data

How the results depend on the processing

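No member gene changed direction past its call under the alternatives counted here: of 180 alternative values 173 kept their side of the 2-fold limit, 4 moved past it and 3 fell short of it. The both-arrays and 1.5-fold settings are not in this count. Averaging probes cannot change a gene with 1 probe. Dropping the filter and bound cannot change a gene measured on both arrays. Such values kept their side by construction. Among 10 genes, the count past 2-fold in transfected tissue against stem cells was 1, and became 0 with centring on detected probes and 0 when all probes of a gene were averaged. In transgenic against wild type ligament it was 0, and became 1 with quantile normalisation, 1 with centring on detected probes and 1 with the deposited table (Tnfrsf11b at 1.03, 1.02 and 1.11 on the log2 scale), 3 without filter or bound, where values at background enter, and 3 at 1.5-fold, where the limit itself is lower. In both comparisons of wild type ligament with cultured samples it was 8 and became 5 when both arrays had to be well above background, since fewer genes then have a value. The largest shifts of the median of all genes against the main scaling were −0.36 in wild type ligament against stem cells (quantile) and 0.52 in transfected tissue against wild type ligament. The cause of other changes was not tested. No paired analysis was possible because each group held 1 array. The change in the Tnfsf11 to Tnfrsf11b ratio gave no value, because Tnfsf11 was not well above background on any array. Signal over background limits Calcr, Tnfsf11 and Tnfrsf11b in ligament.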
